A study of Mus musculus with 6 samples.

Results

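Lin28a, Lin28b, Hmga1, Hmga2, Igf2bp1, Igf2bp2, Igf2bp3 and Arid3a are 8 genes known from the program that sets fetal apart from adult lymphoid progenitors. They were taken by name, as every probe with 1 of the 8 gene symbols on a mouse expression array, each probe read separately. The array names 24105 genes, and the 8 genes have 14 of its 55681 probes: 3 genes have 1 probe, 4 genes have 2 and Hmga1 has 3.

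The cells were 1676, a mouse pre-B cell line of genotype SLP-65-/- LAT-/-, which lacks 2 adaptor proteins of (pre-)B cell receptor and T cell receptor signalling and was grown with excess IL-7. Each culture carried a retroviral vector and was selected with puromycin: an empty control vector, a vector for the human microRNA gene hsa-miR-26a-2 (the miR-26a arrays), or a sponge, an RNA with sites that bind and occupy microRNAs of the miR-26 family. Each of the 3 groups has 2 arrays, 1 from each of 2 experiments, for which the cell clones were generated independently. Total RNA was labelled with Cy3 and hybridized to 1-colour Agilent arrays, whose 6 measurements gave 28823 to 29800 spots well above background out of 59305. All groups share the line, the genotype, IL-7 and puromycin, so the values describe this line alone. A culture with fewer cells of a kind and one with less RNA per cell cannot be told apart in such samples.

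LIN28A and LIN28B are RNA-binding proteins that block the maturation of let-7 microRNAs, and in mice Lin28b is high in fetal and low in adult blood progenitors, where it favours fetal-type lymphocytes such as B-1 cells. Let-7 in turn represses Lin28b, Hmga2, Igf2bp1 and Arid3a, so that the program is high where let-7 is low. HMGA1 and HMGA2 are chromatin proteins that bind AT-rich DNA, IGF2BP1 to IGF2BP3 bind and stabilize messenger RNAs, and ARID3A is a DNA-binding factor of B cells that acts downstream of Lin28b in B-1 cell development.

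The microRNA sequences matter here because the vectors raise or occupy the miR-26 family while the LIN28 proteins act on let-7. Both families are shown as RefSeq gives them for mouse build GRCm38.p6, with the seed (bases 2 to 8) in capitals. The 2 miR-26 microRNAs share the seed UCAAGUA, and let-7a stands for 8 let-7 microRNAs that share the seed GAGGUAG.
mmu-miR-26a-5p: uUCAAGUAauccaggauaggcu
mmu-miR-26b-5p: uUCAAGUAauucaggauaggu
mmu-let-7a-5p: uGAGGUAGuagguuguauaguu

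A probe on this array has the sense of its messenger RNA, so a match to a seed can be read in the probe itself. Searched were TACTTGAA, which pairs with the whole miR-26 seed and adds an A, its shorter forms TACTTGA and ACTTGAA, and the let-7 forms CTACCTCA, CTACCTC and TACCTCA. Each shorter form lies within the longer one of its family. Of the 14 probes, 1 Hmga1 probe has TACTTGAA and with it both shorter miR-26 forms, and 1 Hmga2 probe has CTACCTC. Bases 29 to 58 of the first and 31 to 60 of the second are given, with the match in capitals.
Hmga1 A_51_P483118: ttatttgcagtTACTTGAAtaaaaaacaaa
Hmga2 A_52_P300730: atcaaaacacactaCTACCTCttaagtccc

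TACTTGAA is in 0.174% of all probes, or 0.302% when either strand is counted, and CTACCTC is in 0.366%, or 0.625% on either strand. The shares of the other forms on the probe strand are 0.431% for TACTTGA, 0.7% for ACTTGAA, 0.115% for CTACCTCA and 0.435% for TACCTCA. With either strand counted, they are 0.819%, 1.32%, 0.198% and 0.722%. A match describes the letters of a probe and does not show that a microRNA binds there.

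The 3 Hmga1 probes lie in 1 order along the plus strand of chromosome 17 in build mm9. The most upstream, A_66_P102232, is at chr17:27693913-27693973, the middle one, A_55_P2076057, at chr17:27696588-27696647, and the most downstream, A_51_P483118, at chr17:27700543-27700602. The gaps between neighbours are 2614 and 3895 bases. Positions are those of the array design, and no transcript map of that build was at hand to place them in exons. The middle probe is printed because its letters are known as coding sequence in which the HMGA1a and HMGA1b proteins, made from 1 gene by alternative splicing, differ.
Hmga1 A_55_P2076057: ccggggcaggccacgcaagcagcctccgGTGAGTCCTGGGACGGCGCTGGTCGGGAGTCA
The capitals mark the 32 bases from GTGAGT on, a stretch that, by what is known of the gene and not by a transcript map, the HMGA1a message keeps and the HMGA1b message lacks. Matches of the Hmga1 and Hmga2 probes to pseudogenes without a probe were not checked. GTGAGT is in 1.29% of all probes, and in 2.6% on either strand. No other probe of the array shares 25 bases in a row with any of the 14.

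Only some of the 8 genes were detected in these cells, and their detection does not show that a fetal program is active. Of the 8 genes, 4 had a probe well above background on every array (Lin28a, Hmga1, Igf2bp2 and Arid3a) and 3 had none above it on any. Of the 14 probes, 8 passed the scanner software's test for a signal well above background on every array and 5 on none. The lowest signal of any spot well above background was between 10.68 and 11.89, depending on the array. A probe entered the comparisons where its processed signal passed 50 on at least 4 of 6 arrays and 1 array or more was well above background, which 5 of the 14 probes met: 1 of Lin28a, 2 of Hmga1 and 2 of Arid3a. Since Lin28b, Igf2bp1 and Igf2bp3 were not detected, the tested changes are those of Hmga1, Lin28a and Arid3a and not of the program as a whole.

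Lin28b, whose fetal expression gave the program its name, had no probe above background on any array. Its probe A_55_P1970905 read 2.51 to 4.82 and its probe A_52_P532355 read 2.79 to 6.76. Igf2bp1, the family member best known for holding Myc messenger RNA stable, read 2.63 to 3.83 on its single probe. Igf2bp3, an oncofetal member of the same family, read 2.68 to 4.33. These 3 genes were not detected, so no change can be given for them.

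Hmga2, the let-7 target linked to self-renewal of fetal blood stem cells, was at the edge of detection. The probe that carries the let-7 match, A_52_P300730 at chr10:119798739-119798798, read 13.0 and 19.3 on the control arrays, 6.87 and 16.9 on the miR-26a arrays and 11.97 and 21.0 on the sponge arrays. All but the value of 6.87 were well above background, and the 3 groups overlapped. The second probe, A_55_P2043921 at chr10:119800621-119800680, read 2.93 to 4.43 and was above background on no array. Hmga2-ps1, a pseudogene of Hmga2, has a probe of its own that was tested and read 68.9 to 128, with a median of 102 over the 6 arrays.

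Igf2bp2, which in adults is tied to metabolism and binds messages of growth genes, was detected on all 6 arrays by both probes but stayed below the signal of 50. Probe A_51_P315682 at chr16:22059260-22059319 read 24.1 and 22.0 on the control, 36.7 and 26.5 on the miR-26a and 32.8 and 24.9 on the sponge arrays. Both miR-26a values lay above both control values, while the sponge values overlapped with the miR-26a values and with no control value as processed signals. Probe A_55_P2170737 at chr16:22059582-22059641 read 36.2 and 23.7, 28.9 and 28.0, and 35.3 and 28.1 in the same order of groups. In it all 3 groups overlapped. The most upstream Hmga1 probe was also detected throughout and also too dim to test, at 47.8 and 44.8 on the control, 43.1 and 37.9 on the miR-26a and 43.0 and 52.0 on the sponge arrays. When all 55681 probes were fitted in limma, the 9 probes outside the test gave adjusted p between 0.398 and 1 for the 3 comparisons, the smallest for Igf2bp2 A_51_P315682 on miR-26a against control arrays (log2 change 0.52).

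**Figure D1:**
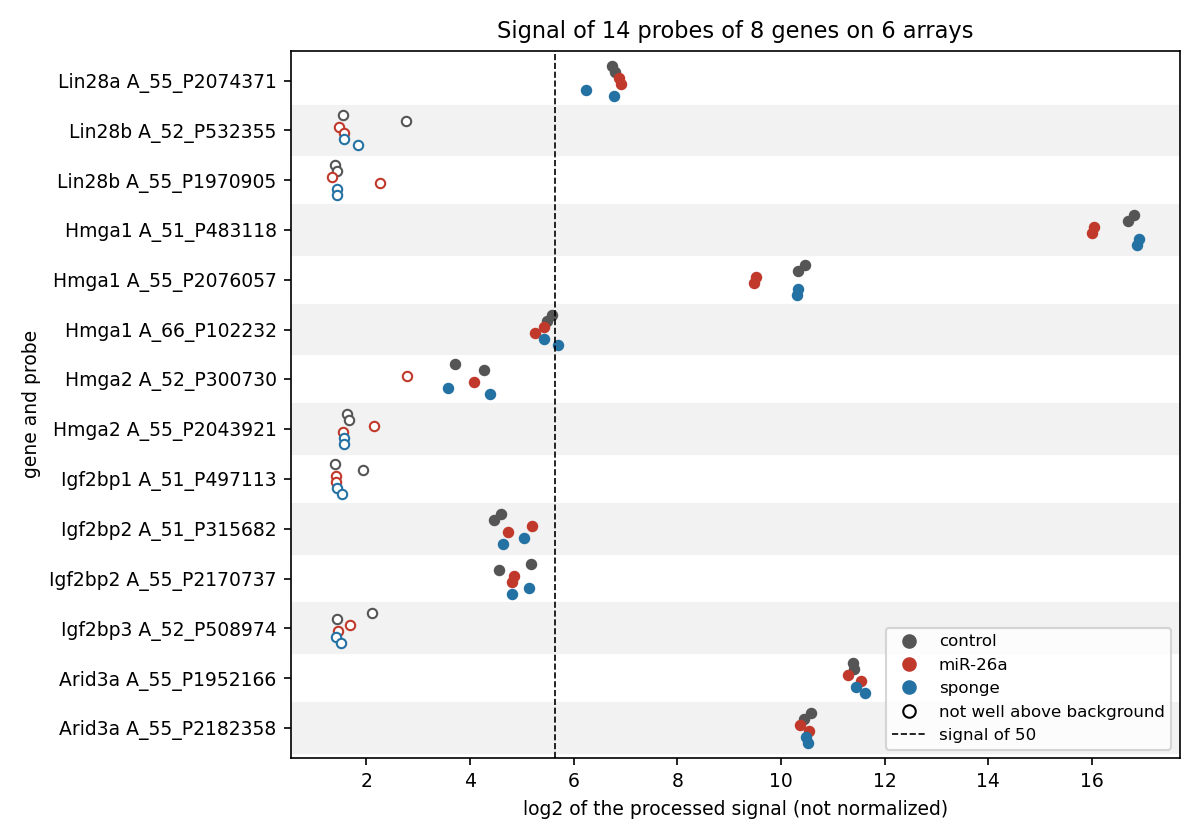
Processed signal of the 14 probes of the 8 genes on the 6 arrays, as log2 before normalization between arrays; each point is 1 array, coloured by group, and an open point was not well above background. The 2 miR-26a points lie below the control and sponge points in the middle and most downstream Hmga1 probes, while both Lin28b probes and the Igf2bp1 and Igf2bp3 probes lie at 6.76 or less before the log.

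The comparison of miR-26a with control arrays asks whether the tested genes, Hmga1, Lin28a and Arid3a, differ between cultures with and without the miR-26a vector. Hmga1 fell on both of its tested probes, to 61.7% and 53.4% of the control level, and neither Lin28a nor Arid3a passed the test. A probe is called lower or higher where the limma p, adjusted over all 20168 tested probes, is under 0.05. Of the 5 tested probes 2 were lower and 0 higher, against 5.14% lower and 4.5% higher among all tested probes (1036 and 908 probes). At an unadjusted p under 0.05, 2 of the 5 probes and 5499 of all probes passed. The median log2 change was -0.06 over the 5 probes and 0.01 over all tested probes.

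Hmga1 encodes an architectural chromatin protein that is abundant in embryonic and proliferating cells. Its most downstream probe, which carries the miR-26 match, read 114898 and 105581 on the control arrays, 67469.5 and 65508 on the miR-26a arrays and 123519 and 119530 on the sponge arrays. The miR-26a values were below those of both other groups, and the control and sponge values did not overlap with each other. On the normalized log2 scale the means were 16.77 ± 0.05 in control, 16.07 ± 0.05 in miR-26a and 16.84 ± 0.02 in sponge (SD, n = 2). The log2 change on miR-26a arrays was -0.70 (SE 0.07, 95% confidence interval -0.86 to -0.53, limma adjusted p 0.00698), with -0.70 in each of the 2 experiments. By p this probe was number 193 of the 20168.

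The middle Hmga1 probe, over the HMGA1a stretch, read 1418 and 1278 on the control arrays, 735 and 714 on the miR-26a arrays and 1290.1 and 1274 on the sponge arrays. Again the miR-26a values were the lowest, while the control and sponge signals overlapped before normalization and not after it. The normalized log2 means were 10.43 ± 0.03, 9.52 ± 0.0044 and 10.27 ± 0.08 in control, miR-26a and sponge (SD, n = 2). Its log2 change on miR-26a arrays was -0.91 (SE 0.07, 95% confidence interval -1.08 to -0.73, limma adjusted p 0.0051), with -0.93 and -0.88 in the 2 experiments, and it was number 87 by p. Whether the 2 probes differ in their change was not tested. The middle probe has none of the miR-26 forms in its own 60 bases.

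Lin28a encodes the LIN28 protein of embryonic and pluripotent cells. Its probe A_55_P2074371, at chr4:133559245-133559304 on the minus strand, read 106 and 111 on the control arrays, 117 and 120.3 on the miR-26a arrays and 74.98 and 109 on the sponge arrays. The miR-26a values were the highest and the sponge group reached from 74.98 to just under the upper control value, so that it overlapped with the control group before normalization. The normalized log2 means were 6.76 ± 0.02 in control, 6.93 ± 0.04 in miR-26a and 6.48 ± 0.19 in sponge (SD, n = 2). Against control the log2 change on miR-26a arrays was 0.18 (SE 0.09, limma adjusted p 0.26), with 0.16 and 0.19 in the 2 experiments.

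Arid3a encodes Bright, a factor that binds AT-rich DNA and drives immunoglobulin heavy chain transcription. Probe A_55_P1952166 at chr10:79417377-79417436 read 2677 and 2710.5 on the control, 2509.8 and 2990.1 on the miR-26a and 2784 and 3129 on the sponge arrays. Probe A_55_P2182358 at chr10:79417698-79417757 read 1535 and 1385, 1315 and 1489, and 1433 and 1474 in that order. The miR-26a arrays overlapped with the control arrays in both probes. Normalized log2 means of the first probe were 11.43 ± 0.10, 11.46 ± 0.22 and 11.46 ± 0.09, and of the second 10.54 ± 0.03, 10.47 ± 0.15 and 10.45 ± 0.03, in control, miR-26a and sponge (SD, n = 2). The log2 changes on miR-26a arrays were 0.03 (95% confidence interval -0.16 to 0.23) and -0.06 (-0.29 to 0.16), at limma adjusted p 0.844 and 0.718. A change of the size seen in Hmga1 lies outside both intervals.

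**Figure D2:**
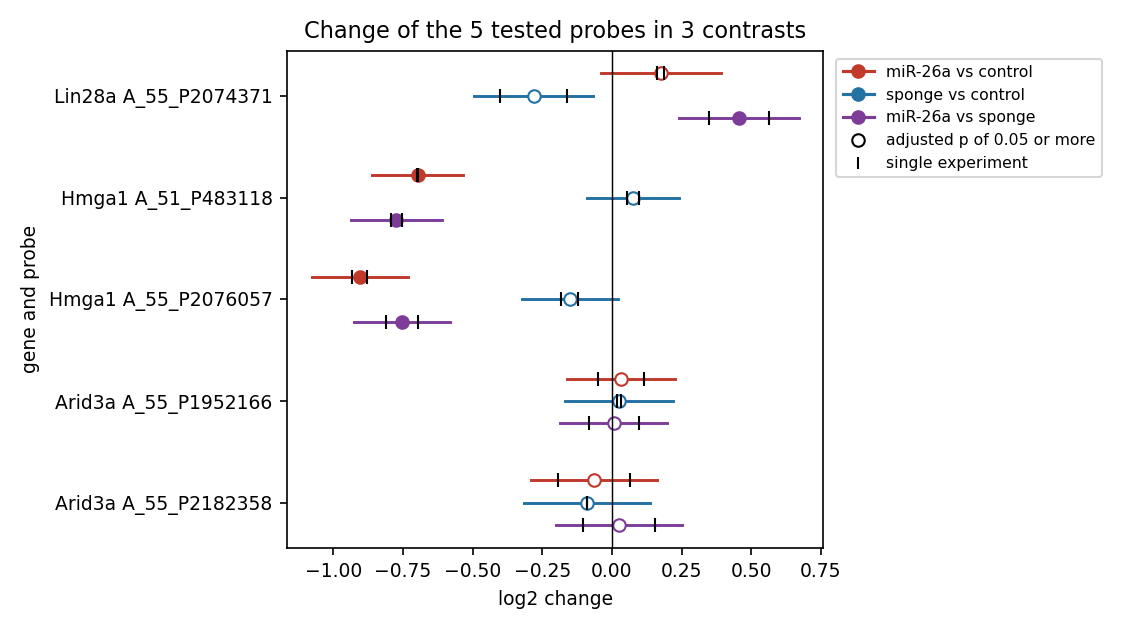
Log2 change of the 5 tested probes in the 3 comparisons; points are limma estimates, filled where adjusted p was under 0.05, lines are 95% confidence intervals and black ticks are the 2 experiments. Both Hmga1 probes lie between -0.91 and -0.70 on miR-26a arrays against control and against sponge, and no point of the sponge against control is filled.

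The Hmga1 calls against control were lost without control replicate 1 and without control replicate 2, while the log2 changes stayed about as large. They were -0.71 for the most downstream and -0.91 for the middle probe without replicate 1. Without replicate 2 they were -0.69 and -0.90. The calls were also lost with dim probes kept in the fit (limma adjusted p 0.232 for both) and with the 2 log ratios tested without moderation. In both settings the log2 changes were -0.70 and -0.91. Over 17 alternatives the adjusted p ran from 0.00104 to 0.332 and from 0.000387 to 0.389, highest with the log ratios. All p-values rest on 2 arrays a group, and that number limits their precision.

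The sponge comparison asks whether the same genes differ between cultures with the sponge and with the control vector. No probe of the 8 genes passed the test: 0 of 5 were lower and 0 higher in limma, and 1 of 5 had an unadjusted p under 0.05. Among all tested probes 0 were lower (0%) and 2 higher (0.00992%), with 3247 at an unadjusted p under 0.05. That count depended on the setting, with 26 lower and 10 higher under normexp background correction and 22 lower and 13 higher when only the 4 arrays were compared. The 2 probes, named here after their values were seen, were a probe of Bbs1, a gene of the ciliary BBSome complex (log2 change 3.11), and A_55_P2068199, which has no gene name (log2 change 2.91). The median log2 change was -0.09 over the 5 probes and 0.00476 over all. Both this comparison and the one before use the same 2 control arrays.

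Hmga1 on sponge arrays had a log2 change of 0.08 on the most downstream probe (95% confidence interval -0.09 to 0.24, limma adjusted p 0.592) and of -0.15 on the middle probe (-0.32 to 0.02, adjusted p 0.352). The 2 estimates had opposite signs, the same in both experiments of each probe (0.10 and 0.06, -0.12 and -0.18). Neither is a call. Lin28a had a log2 change of -0.28 (95% confidence interval -0.49 to -0.07, limma adjusted p 0.248), with -0.40 and -0.16 in the 2 experiments, and it is the probe with the unadjusted p under 0.05 (0.0191). The Arid3a estimates were 0.03 and -0.09 at adjusted p 0.887 and 0.653.

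**Figure D3:**
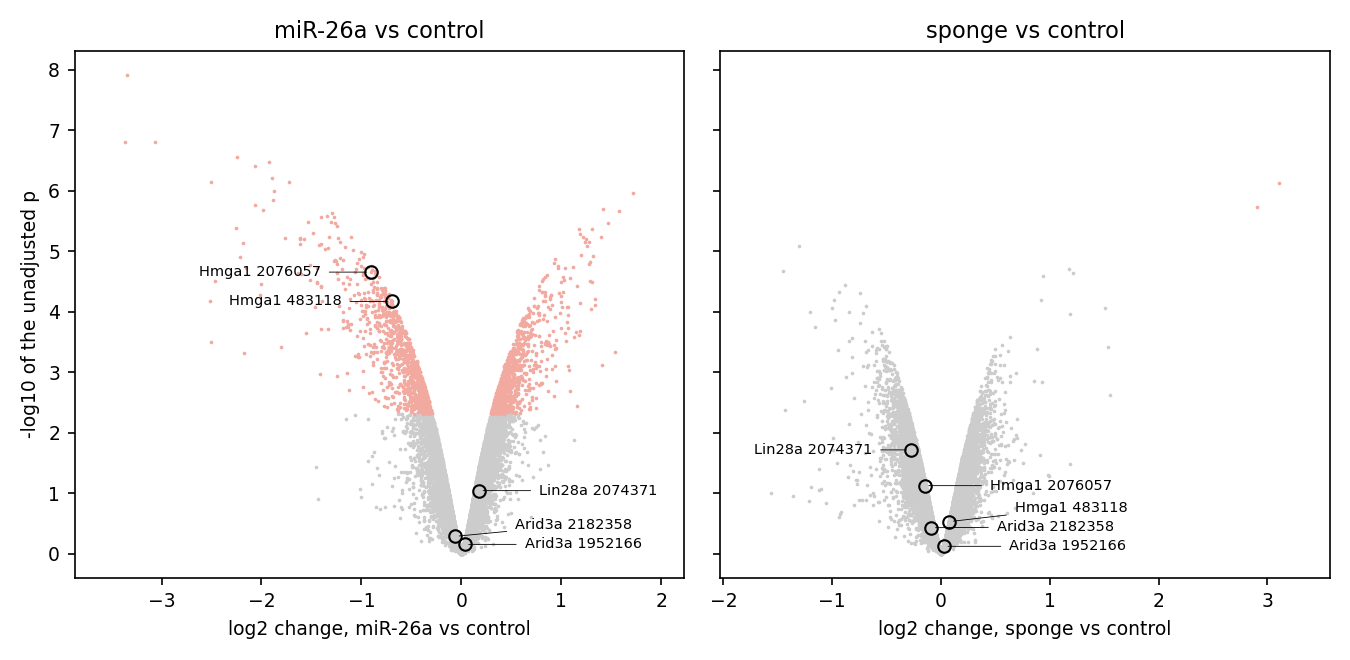
All 20168 tested probes by log2 change and by -log10 of the unadjusted p, on miR-26a arrays and on sponge arrays, each against control; coloured points have an adjusted p under 0.05 and circles mark the 5 tested probes of the 8 genes. The 2 Hmga1 probes lie among the 1036 lower probes on the miR-26a arrays, and on the sponge arrays all 5 circles lie among the grey points.

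The direct comparison of miR-26a with sponge arrays sets the raised against the occupied microRNA and uses no control array as a reference. Hmga1 was lower on miR-26a arrays on both probes and Lin28a was higher. That is 2 lower and 1 higher of 5, against 8.49% lower and 8.28% higher among all tested probes (1712 and 1669 probes). The log2 changes of Hmga1 were -0.77 (95% confidence interval -0.94 to -0.61, limma adjusted p 0.00365) on the most downstream and -0.75 (-0.93 to -0.58, adjusted p 0.0043) on the middle probe. The miR-26a arrays held 58.5% and 59.3% of the sponge level, with the lower value in both experiments of each probe.

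Lin28a was at 137% of the sponge level on the miR-26a arrays (95% confidence interval 118% to 159%). Its log2 change was 0.46 (SE 0.09, limma adjusted p 0.0246), with 0.56 and 0.35 in the 2 experiments. Arid3a had log2 changes of 0.01 and 0.03 at adjusted p 0.968 and 0.874. The median over the 5 probes was 0.01, and 0.02 over all tested probes.

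The Lin28a call was lost under 9 of 17 alternatives, over which the adjusted p ran from 0.0191 to 0.478 and the log2 change from 0.27 to 0.57, the lowest with another background correction. It was 0.0722 without miR-26a replicate 1, 0.113 and 0.0622 without sponge replicate 1 and 2, 0.0512 without control replicate 1 or 2 and 0.0771 with no replicate block. The middle Hmga1 probe lost its call without sponge replicate 1, at a log2 change of -0.71. Its adjusted p ran from 0.000584 to 0.439 over the 17 alternatives. Both Hmga1 calls were lost with dim probes in the fit (limma adjusted p 0.171 for each) and with the 2 log ratios alone. In both settings the log2 changes were -0.77 on the most downstream and -0.75 on the middle probe.

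Probes with the same letters as the most downstream Hmga1 probe are given as context. That probe is itself counted under each miR-26 form, also among the lower ones on miR-26a arrays. Of 38 tested probes with TACTTGAA, 13 were lower and 1 higher on miR-26a arrays against control, with 21 at an unadjusted p under 0.05 and a median log2 change of -0.22. Of all tested probes 5.14% were lower and 4.5% higher. On sponge arrays their median was 0.09, with 0 called in limma and 10 at an unadjusted p under 0.05. Of 89 tested probes with the shorter form TACTTGA, 19 were lower and 2 higher on miR-26a arrays (40 unadjusted), at a median of -0.15. For ACTTGAA, 27 of 149 were lower and 3 higher (62 unadjusted), at -0.14. The sponge medians of these 2 forms were 0.08 and 0.05, with 0 called in limma. Of 86 tested probes with the let-7 form CTACCTC, 0 were lower and 3 higher on miR-26a arrays, with 20 at an unadjusted p under 0.05 and a median of 0.01. Of 87 with TACCTCA, 4 were lower and 2 higher (19 unadjusted), at a median of -0.01, and of 28 with CTACCTCA, 0 were lower and 1 higher (5 unadjusted), at -0.04. These counts describe letters in probes, and most of any message lies outside its probe.

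The genes most like each measured gene over the 6 arrays were sought among 15196 other tested probes with a gene symbol, by the distance between log2 profiles centred on their own means. For the most downstream Hmga1 probe they were Gpam, a mitochondrial enzyme of glycerolipid synthesis (distance 0.0761), H3f3b, a gene of histone H3.3 (0.0981), and Bak1, a pro-death member of the BCL2 family (0.106). Their log2 changes on miR-26a arrays were -0.77, -0.66 and -0.73, and on sponge arrays 0.02, 0.10 and 0.04. For Lin28a they were Nrbp1 (0.0636), Ring1, a Polycomb protein (0.0765), and Cfl1, the actin-severing protein cofilin (0.0879), with log2 changes of 0.17, 0.18 and 0.14 on miR-26a and -0.30, -0.33 and -0.33 on sponge arrays, none of them called. For Arid3a A_55_P1952166 they were 2410002I01Rik (0.0597), Unc50 (0.0625) and Zfp260 (0.0666). With 6 arrays many genes share a profile, and nearness is a description.

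The partners and targets of the 8 genes were read from 15 lists of 249 genes, of which 159 were tested, each by its brightest tested probe. The lists were written with results of these data known, so their shares of calls are a description and no test. Shares over all tested probes count every probe and not 1 per gene. Against control, 20 of the 159 were lower (12.6%) and 8 higher (5.03%) on miR-26a arrays, beside 5.14% and 4.5% of all tested probes. Of these 28 calls, 23 were lost without control replicate 1, 18 without control replicate 2, 10 and 6 without miR-26a replicate 1 and 2, and 8 without either single sponge array. With no replicate block 20 were lost, and with dim probes kept or with the 2 log ratios alone all 28 were. Against sponge, 25 of the 159 were lower and 12 higher on miR-26a arrays, beside 8.49% and 8.28% of all tested probes. Of these 37 calls, 27 and 26 were lost without sponge replicate 1 and 2, 16 and 11 without miR-26a replicate 1 and 2, and 14 without either single control array. With no replicate block 24 of these were lost, and all 37 with dim probes kept or with log ratios. On sponge arrays 0 were called in limma in either direction, and 20 had an unadjusted p under 0.05. Some genes stand on more than 1 list.

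The transcripts of proteins that work with LIN28 on let-7 were not called. Of 16 genes of the LIN28 and let-7 axis, 15 were tested, and 0 were called in any of the 3 comparisons in limma, with 2, 1 and 5 at an unadjusted p under 0.05 in miR-26a against control, sponge against control and miR-26a against sponge. Their medians were -0.06, -0.02 and -0.01. Zcchc11 and Zcchc6, the uridylyl transferases that tail pre-let-7 held by LIN28, had log2 changes of -0.19 and -0.02 on miR-26a arrays and of -0.06 and -0.02 on sponge arrays. Dis3l2, the nuclease that degrades the tailed form, had 0.10 and 0.09. Eif2c2, which encodes Argonaute 2, had -0.31 on miR-26a arrays (adjusted p 0.107), and Khsrp, an RNA-binding protein that aids let-7 maturation, had -0.37 on sponge arrays (adjusted p 0.221). Trim71, a let-7 target of stem cells, was the 1 gene not tested, and it was above background on no array.

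Genes known as let-7 targets were called in both directions on miR-26a arrays. Of 37, 25 were tested, and against control 2 were lower and 5 higher, at a median of 0.05. Beside these counts, 5.14% of all tested probes were lower and 4.5% higher. Slc5a6, a vitamin transporter, rose by 0.85 (adjusted p 0.0124), Myc, the growth-promoting transcription factor, by 0.58 (0.0154) and Plagl2, a zinc finger factor, by 0.55 (0.0249) on the log2 scale. Arid3b, a relative of Arid3a, fell by 0.52 (0.0133). Against sponge the counts were also 2 lower and 5 higher, beside 8.49% and 8.28% of all tested probes. Plagl2 was at 0.73, Slc5a6 at 0.71, Myc at 0.46 and Limd2 at -0.42. These 4 calls against sponge were lost under 3, 4, 9 and 6 of 17 alternatives. On sponge arrays against control 0 were called in limma, 0 had an unadjusted p under 0.05 and the median was -0.02.

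Of 22 genes tied to fetal blood, Hmga2 among them, 7 were above background on all 6 arrays and 10 on none, and 5 were tested. Against control, 0 were called in limma on miR-26a arrays and 0 on sponge arrays, with 1 at an unadjusted p under 0.05 in each, and the medians were -0.07 and -0.12. Bcl11a, a zinc finger factor needed for B cells that silences fetal globin, had a log2 change of 0.39 on miR-26a arrays at an adjusted p of 0.0516. Plagl1, an imprinted zinc finger gene, had -0.41 on sponge arrays (adjusted p 0.221) and was the 1 gene called against sponge, higher on miR-26a arrays by 0.46 (adjusted p 0.0229). That call was lost under 6 of 16 alternatives, and with normexp background correction the change was 0.25. Over all tested probes 8.28% were higher on miR-26a than on sponge arrays.

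Genes tied to adult lymphoid development were lower on miR-26a arrays in 7 of 13 tested cases and higher in 0, at a median of -0.71. Among all tested probes 5.14% were lower and 4.5% higher. Rag2 fell by 3.36 (adjusted p 0.00105) on the log2 scale and Rag1, its partner in the recombinase that cuts immunoglobulin genes, fell by 2.47 (0.00555). Cd74, the invariant chain of MHC class II, fell by 2.25 (0.00313), and H2-Aa, a class II chain, fell by 2.18 (0.0152), with 1 of its 2 miR-26a arrays above background. With normexp background correction the changes were -1.49 for Cd74 and -0.93 for H2-Aa, and the H2-Aa call was lost under 7 of 16 alternatives. Dntt, the enzyme that adds bases at immunoglobulin joints and is low in fetal B cells, fell by 1.12 (adjusted p 0.00548). Its normalized log2 mean was 12.82 on control and 11.70 on miR-26a arrays, well above background on all of them. The Rag genes act in developing B cells of any age, and whether the lower values mark a change from adult to fetal type was not tested. On sponge arrays Dntt had 0.07, and of the 13 genes 0 were called in limma and 0 had an unadjusted p under 0.05.

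Genes known from B-1 cells, the lymphocytes that Lin28b favours, gave 4 lower and 0 higher of 12 tested on miR-26a arrays, at a median of -0.10. Beside them, 5.14% of all tested probes were lower and 4.5% higher. Cd5, a surface receptor that dampens antigen signals, fell by 1.98 (adjusted p 0.00268), and with normexp background correction its change was -0.83. Siglecg, a sialic acid receptor that restrains B-1 cells, fell by 0.90 (0.00698), and Bhlhe40, a repressor that with its relative Bhlhe41 upholds B-1a cells, fell by 0.82 (0.0106). On sponge arrays 0 were called in limma and 4 had an unadjusted p under 0.05, among them Siglecg at a log2 change of -0.32 (adjusted p 0.227).

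The relatives of the 8 genes are read beside the 5.14% lower and 4.5% higher over all tested probes. Among other high mobility group genes 1 of 14 was lower and 0 higher on miR-26a arrays: Hmgn3, a nucleosome-binding protein, fell by 0.33 (adjusted p 0.0413), a call lost under 11 of 17 alternatives. Among other ARID genes and partners of ARID3A, 3 of 17 were lower and 1 higher. Arid5a, an ARID protein that stabilizes cytokine messages, fell by 0.72 (adjusted p 0.00912), Arid3b fell by 0.52, and Jarid2, a Polycomb cofactor, fell by 0.43 (0.0433, lost under 11 of 17 alternatives), while E2f1, a cell cycle factor bound by ARID3 proteins, rose by 0.51 (0.0167). Arid3b read 185 and 197 on the control, 122 and 139 on the miR-26a and 163 and 204 on the sponge arrays, so its miR-26a values were the lowest and its control and sponge values overlapped. Arid3c was above background on no array.

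Proteins that share messages with the IGF2BP family were all tested, 30 of 30, and gave 0 lower and 2 higher on miR-26a arrays, at a median of 0.05. The shares over all tested probes were again 5.14% lower and 4.5% higher. Csda, a cold-shock domain protein, rose by 0.45 (adjusted p 0.0204) and Fmr1, the fragile X protein, by 0.32 (0.0467). The Csda call was lost under 6 of 17 alternatives and the Fmr1 call under 13. In the insulin-like growth factor pathway, from which the IGF2BP proteins have their name, 6 of 18 genes were tested and 9 were above background on no array, Igf2 not being tested. Igfbp4, which binds and holds the growth factors, was above background on neither miR-26a array and was at least 4.62-fold lower there than on control arrays (limma adjusted p 0.000243). With normexp background correction its fitted change was -0.81. Irs2, an adaptor of the insulin and IGF receptors, fell by 1.02 (0.00869), so 2 of 6 were lower and 0 higher, at a median of -0.17, with Igfbp4 the lowest value also at its bound. On sponge arrays these 4 groups of 14, 17, 30 and 6 genes had 0, 2, 5 and 2 genes at an unadjusted p under 0.05 and 0 called in limma, at medians of 0.01, -0.08, 0.07 and 0.09.

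**Figure D4:**
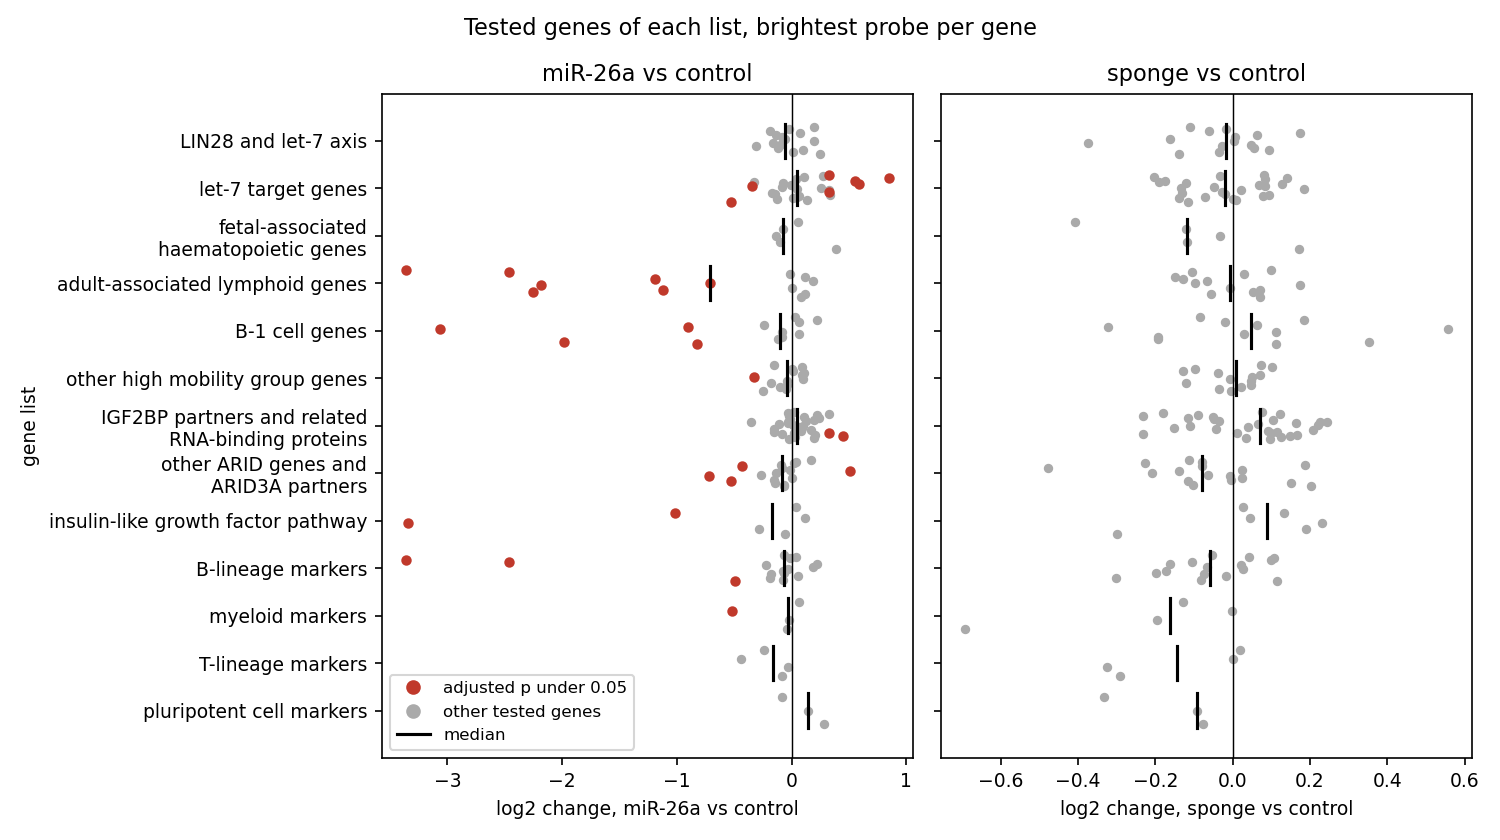
Log2 change of the tested genes of 13 lists on miR-26a arrays and on sponge arrays, each against control; a point is 1 gene by its brightest probe, red where adjusted p was under 0.05, and the bar is the median of the list. Red points lie mostly below 0 in the lists of adult and B-1 genes and on both sides among let-7 targets, and there are none on the sponge arrays; the fitted value of Igfbp4 is drawn although it was not above background with miR-26a.

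The label of a pre-B cell was read against its markers. All 16 B-lineage markers were tested, the brightest being Vpreb1 of the surrogate light chain. Their summed signals were 840981 and 791328 on the control, 776836 and 781037 on the miR-26a and 819402 and 844762 on the sponge arrays, which put the miR-26a arrays lowest. On miR-26a arrays 3 of the 16 were lower and 0 higher against control: Rag2, Rag1 and Blnk, which fell by 0.49 (adjusted p 0.0275). The shares over all tested probes were 5.14% lower and 4.5% higher. Blnk encodes SLP-65, the adaptor that the genotype label gives as deleted, yet its probe read 44623 and 45741 on the control, 29900.4 and 32261 on the miR-26a and 53533.5 and 50597 on the sponge arrays. The miR-26a values were the lowest. These signals are before normalization, and after it sponge and control differed by a log2 change of 0.12 (adjusted p 0.538). That probe lies at chr19:41003426-41003485 in build mm9. Lat, the other gene of the genotype, read 1065 to 1339.9 at chr7:133507719-133507778. The labels do not say which bases the disrupted genes lack, so whether a probe lies in a deleted stretch was not tested.

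Markers of other cells were few. Of the erythroid and the stromal markers, 7 each, 0 were tested, with 4 and 5 above background on no array, and the brightest were Klf1 and Col1a2. Of 12 myeloid markers 4 were tested, with Itgam the brightest, and all 12 summed to 4019.8 and 4764, 3995 and 4629, and 3445 and 5197 on control, miR-26a and sponge arrays. These myeloid sums overlap between groups. Fcgr3, a receptor for antibodies that myeloid and early B cells carry, was the 1 called, and fell by 0.51 (adjusted p 0.034) on miR-26a arrays, a call lost under 9 of 17 alternatives. Over all tested probes 5.14% were lower and 4.5% higher there. Of 10 T-lineage markers 4 were tested, with Zap70 the brightest, and 0 were called in limma in any comparison, with 1, 2 and 3 at an unadjusted p under 0.05. All 10 summed to 15954.5 and 15441 on the control, 13096 and 13276 on the miR-26a and 15245.5 and 18982 on the sponge arrays. The miR-26a sums were the lowest and overlapped with no other group.

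The pluripotent markers bear on Lin28a, a gene of such cells. Of 8, 3 were tested and 4 were above background on no array, Nanog being the brightest. None was called in limma in the 3 comparisons, with 1, 1 and 3 at an unadjusted p under 0.05. Nanog had log2 changes of 0.14 on miR-26a and -0.09 on sponge arrays, and Esrrb had 0.29 on miR-26a arrays. Tdgf1, a signalling cofactor of early embryos, had -0.09 on miR-26a and -0.33 on sponge arrays (adjusted p 0.486 and 0.221). The medians of the 3 genes were 0.14, -0.09 and 0.25 in miR-26a against control, sponge against control and miR-26a against sponge, beside 0.18, -0.28 and 0.46 for Lin28a. The part of other cell types in the Lin28a and Hmga1 values was not tested.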

How the data were processed

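Total RNA of 6 cultures was read on 1-colour arrays. The submitters' processing notes name Agilent Feature Extraction 10.7.1.1; its deposited processed signal is a background-subtracted intensity, and the authors' series table is a quantile-normalized linear intensity, used as an alternative. Here processed signals were quantile-normalized on the log2 scale, with 1 mean per probe. Tests covered the 20168 of 55681 probes that met the stated limits, in limma 3.58.1 (R 4.3.3; tables in Python 3.11.15) with experiment as a block and Benjamini-Hochberg adjustment over all probes. The titles of the control arrays also quote other sample records, so their pairing with the treated arrays rests on replicate numbers. Experiment coincides with slide row; as a check of the pairing, deviations of replicate 1 from the group means correlated at 0.379 to 0.588 across probes between groups. No spot was saturated (0). The fit was tested on simulated data. The 8 genes and all lists were chosen with earlier results of these data known. From each list were named, per comparison, up to 4 called genes with the largest change, or the 2 with the smallest p where none was called, plus Zcchc11, Zcchc6, Dis3l2, Arid3b and Dntt. Where no array of a group was above background, the fold was bounded by the lowest such signal. Alternatives covered block, scaling, background, filter, array weights, probe averaging and leaving out arrays. No predicted site outside the probes was searched.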

Additional observations from a re-analysis of the deposited data

How the results depend on the processing

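No called value of the 5 tested probes reversed under any alternative run. The counts depended on the setting, and the cause was not tested. Probes called in miR-26a against control (1944), sponge against control (2) and miR-26a against sponge (3381) numbered 311, 2 and 997 with no replicate block, 0, 0 and 0 with dim probes kept, 1123, 35 and 1883 with only the 4 arrays compared, and 0, 0 and 0 with the 2 log ratios tested without moderation. For sponge against control they numbered 4 with 75th percentile scaling, 36 with normexp background (26 lower, against 0 of the 2), 6 and 10 with the signal limit on 6 or 2 arrays, and 0 with the probes of a gene averaged. Leaving out single arrays gave 104 to 1599, 0 to 35 and 410 to 2436, where a lone array was assumed to vary like the other groups. The 2 lower probes of the 8 genes, against control and against sponge, became 0 with dim probes kept or with log ratios, remained 2 with no replicate block, and were 0 to 2 and 1 to 2 with single arrays left out. The 1 higher probe against sponge, Lin28a, became 0 with no block, dim probes kept, only 4 arrays or log ratios, and 0 to 1 with single arrays left out. Signal over background limits what can be said of the 9 untested probes.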
